A study of Mus musculus with 3 samples.

Results

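Ftl1-ps1, Gm10093, Gm10260, Trim12a, Ccdc85b, Nxpe4, Cit and Hebp1 were followed across cell classes of Peyer's patch vasculature in the mouse. They are 8 of 31055 features in the count matrices and were chosen by their UMI counts, which differed widely between a control library and libraries from mice that overexpress the transcription factor COUP-TFII, encoded by Nr2f2. All comparisons with control below, in every cell class, therefore describe genes picked on that contrast and are no independent evidence of a shift. Comparisons within a library did not enter the choice. The data are droplet-based 3′-end single-cell RNA counts from 3 libraries. The control library, labelled WT, came from C57BL/6 mice. The EC-iCOUPOE libraries, replicates 1 and 2, came from mice of the genotype CDH5(PAC)CreERT2;COUP-TFIIOE/OE, in which a tamoxifen-activated Cre recombinase under the endothelial Cdh5 promoter switches on a COUP-TFII transgene. All mice were 6 to 10 weeks old, cells were taken 14 to 19 days after tamoxifen, and male and female mice were pooled within each library. The labels give neither the number of mice per library nor the strain background of the EC-iCOUPOE mice, and the methods name Cre-negative littermates as controls where the label says WT. With 1 control library, genotype, strain background, mice and library cannot be told apart, and no p-value was computed.

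The libraries held 17341398 UMIs in the control and 17417260 and 3548983 UMIs in EC-iCOUPOE replicates 1 and 2, and 5253, 4669 and 1235 cells were used. Values are UMIs (unique molecular identifiers, each marking 1 captured transcript) summed over the cells of a class and scaled to CPM, the count per 1000000 UMIs of that class. Intervals are 95% intervals that cover counting error only. A gene was tested in a class if a library held at least 20 of its UMIs, and it was called if both EC-iCOUPOE libraries differed from control by at least 2-fold in the same direction. Where a library held no UMI, the ratio was bounded with a floor of 3 UMIs in that library. The control and EC-iCOUPOE replicate 2 shared 12 cell barcodes, and the other pairs shared 0. As a check of the labels, Nr2f2 in capillary endothelial cells (EC) stood at 9.31 CPM in control, 1879 CPM in EC-iCOUPOE replicate 1 and 1122 CPM in replicate 2. Cdh5, which marks endothelium, stood at 584, 636 and 472 CPM in the same cells. The 7 capillary markers were all detected in capillary EC of every library, summing to 2870 to 3719 CPM, and the 12 pericyte and smooth muscle markers were all detected in pericytes/smooth muscle of every library. Other markers moved with the comparison in capillary EC. In control and replicates 1 and 2, the 8 PCV markers summed to 387, 2523 and 3157 CPM with 0 at 0 UMIs, and the 7 HEC (high endothelial cell) markers to 624, 2089 and 2756 CPM with 1, 2 and 3 at 0. The 11 arterial markers summed to 1770, 619 and 892 CPM with 0, 1 and 1 at 0, and the 5 red cell markers to 3523, 276 and 29.9 CPM with 0, 1 and 1 at 0. The 10 fibroblast markers summed to 112, 1.00 and 5.50 CPM with 1, 8 and 7 at 0. The 6 epithelial markers summed to 1.16, 52.5 and 37.7 CPM with 5, 2 and 3 at 0. In PCV the red cell markers summed to 3438, 0.966 and 16.6 CPM and the epithelial markers to 3.87, 284 and 294 CPM. The part of such cells or their RNA in the capillary and PCV values was not tested.

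Of the 8 genes, 3 are retrocopies, which arise when a messenger RNA is copied back into DNA and inserted elsewhere in the genome, so that they lack the source gene's introns and resemble its spliced transcript. Ftl1-ps1 derives from the ferritin light chain gene Ftl1, which stores iron, Gm10093 from the histone deacetylase gene Hdac1, and Gm10260 from the ribosomal protein gene Rps18. Short reads from a copy and its source are hard to tell apart where their sequences align. The other 5 are annotated as protein coding. Trim12a belongs to the interferon-linked cluster of TRIM ubiquitin ligases, Ccdc85b encodes a coiled-coil protein of the DIPA family, Nxpe4 belongs to the neurexophilin and PC-esterase domain family, Cit encodes citron kinase of the cytokinetic midbody, and Hebp1 encodes a haem-binding protein.

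In GRCm38, Ftl1-ps1 lies at chr13:74399694-74407346 on the plus strand, Gm10093 at chr17:78491582-78493025 on the plus strand and Gm10260 at chr13:97760072-97760632 on the minus strand. GENCODE M21 annotates Gm10093 as a processed pseudogene and the other two as protein coding, and RefSeq lists all 3 as pseudogenes. Trim12a lies at chr7:104299894-104315466 (minus), Ccdc85b at chr19:5453180-5457894 (minus), Nxpe4 at chr9:48162023-48400025 (plus), Cit at chr5:115845278-116008947 (plus) and Hebp1 at chr6:135137522-135198022 (minus). The Ftl1-ps1 transcript aligned to that of Ftl1 over 910 bases with 4 mismatches. Gm10093 aligned to Hdac1 over 1444 bases with 9 mismatches and Gm10260 to Rps18 over 545 bases with 5. Within the last 300 bases of the source transcript, where 3′-end reads fall, Ftl1 and its copy differed at 3 positions and Rps18 and its copy at 4, whereas Gm10093 reached none of those bases of Hdac1. Trim12a aligned best to Trim12c, with 96.0% identity over 967 bases. The windows below show how little separates each copy from the coding sequence of its source. Each is the 90-base coding stretch with the most differences, the one nearest the 3′ end if several tie, with the differing bases in capitals.
Ftl1, chr7:45458107-45458196, minus strand: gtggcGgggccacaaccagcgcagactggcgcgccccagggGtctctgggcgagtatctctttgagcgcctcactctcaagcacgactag
Ftl1-ps1, chr13:74407066-74407155, plus strand: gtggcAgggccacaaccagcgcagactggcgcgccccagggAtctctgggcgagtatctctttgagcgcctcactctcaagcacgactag
Hdac1, spliced, chr4:129522502-129523049, minus strand: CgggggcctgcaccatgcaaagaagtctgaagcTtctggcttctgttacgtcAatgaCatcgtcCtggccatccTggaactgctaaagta
Gm10093, chr17:78491989-78492078, plus strand: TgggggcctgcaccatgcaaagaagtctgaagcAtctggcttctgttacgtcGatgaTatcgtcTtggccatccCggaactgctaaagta
Rps18, spliced, chr17:33952043-33952234, minus strand: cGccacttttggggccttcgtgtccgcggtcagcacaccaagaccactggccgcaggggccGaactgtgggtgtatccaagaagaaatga
Gm10260, chr13:97760130-97760219, minus strand: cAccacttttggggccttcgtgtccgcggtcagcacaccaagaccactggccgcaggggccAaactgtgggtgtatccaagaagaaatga

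The Ftl1 and Rps18 pairs each differed at 2 positions of the window and the Hdac1 pair at 6. Reads that match both members of a pair equally well are not assigned to either by the counting software. The counts of Ftl1-ps1, Gm10260 and their sources therefore rest on few positions and are uncertain. For Gm10093 and Hdac1 this holds only for reads from the aligned stretch, since Gm10093 did not reach the 3′ end of Hdac1.

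In capillary EC, Ftl1-ps1 held 44 UMIs in control (25.6 CPM), 2170 in EC-iCOUPOE replicate 1 (725 CPM) and 1035 in replicate 2 (814 CPM). Both EC-iCOUPOE libraries were far above control, 28.3-fold and 31.8-fold higher. Trim12a held 0 UMIs in control, 182 in replicate 1 (60.8 CPM) and 69 in replicate 2 (54.2 CPM), at least 34.9-fold and 31.1-fold higher. Nxpe4 likewise held 0 UMIs in control, 170 in replicate 1 (56.8 CPM) and 94 in replicate 2 (73.9 CPM), at least 32.6-fold and 42.3-fold higher. No control capillary EC held a UMI of either gene, and 0 of 974 cells, by the floor of 3 counts, allows a share of cells with a UMI of up to 0.308%, which does not limit the share of cells that express the gene. Ccdc85b held 3 UMIs in control (1.75 CPM), 307 in replicate 1 (103 CPM) and 37 in replicate 2 (29.1 CPM). Its log2 ratio was 5.88 (4.32 to 8.16) in replicate 1 and 4.06 (2.40 to 6.40) in replicate 2, so the EC-iCOUPOE libraries themselves lay apart.

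The other 4 genes were lower. Gm10093 held 98 UMIs in control (57.0 CPM), 2 in replicate 1 (0.668 CPM) and 1 in replicate 2 (0.786 CPM), with log2 ratios of -6.41 (-9.48 to -4.52) and -6.18 (-11.50 to -3.67). Gm10260 held 64 UMIs in control (37.2 CPM), 2 in replicate 1 (0.668 CPM) and 7 in replicate 2 (5.50 CPM). It was near 0 in replicate 1, while replicate 2 kept a low count. Cit stood at 46.0 CPM in control, 5.68 CPM in replicate 1 and 6.29 CPM in replicate 2, or 8.09-fold and 7.31-fold lower. Hebp1 stood at 57.6 CPM in control, 4.68 CPM in replicate 1 and 5.50 CPM in replicate 2, or 12.3-fold and 10.5-fold lower. Of 9189 genes tested in capillary EC, 7.78% were called in either direction, 4.84% higher and 2.94% lower. All 8 genes were called, as their choice fixed. Those nearest the 2-fold rule were Gm10260 and Cit, whose smaller absolute log2 ratios of 2.76 and 2.87 ranked 27 and 25 among the lower genes, so genes with larger shifts also lie outside the 8.

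**Figure D1:**
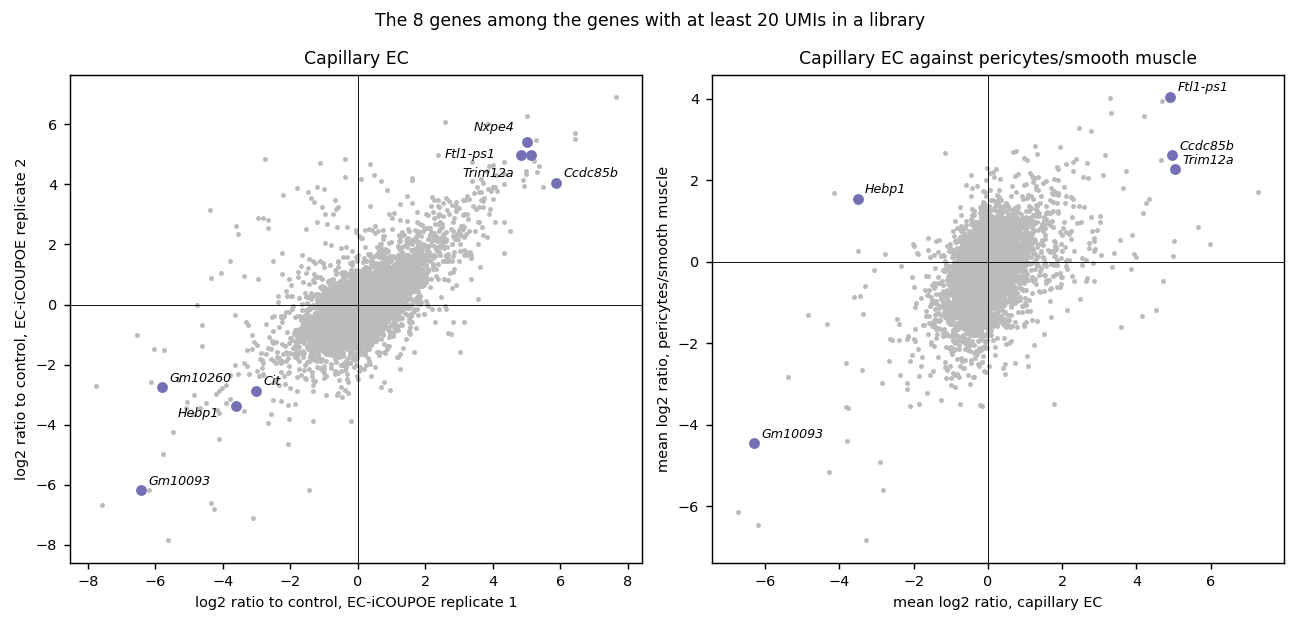
Left, log2 ratio to control in capillary EC for every tested gene (grey), EC-iCOUPOE replicate 1 on the horizontal and replicate 2 on the vertical axis, with the 8 genes in purple. Right, mean log2 ratio in capillary EC against that in pericytes/smooth muscle for genes tested in both, where Hebp1 lies at -3.50 and 1.55 and the other 4 genes tested there keep one sign.

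Capillary cells of the genotypes lay largely in different clusters. Cluster 7 held 434 control cells and 12 in each EC-iCOUPOE library, and cluster 2 held 15 control cells against 694 and 95. A cluster made mostly of 1 library may be that library rather than a cell type, so values were also taken within cluster 4, which held 258, 123 and 125 cells. In cluster 4 Ftl1-ps1 stood at 20.4, 713 and 933 CPM, Nxpe4 at 0, 136 and 159 CPM, Hebp1 at 53.1, 0 and 4.30 CPM and Cit at 49.0, 8.24 and 4.30 CPM in control and EC-iCOUPOE replicates 1 and 2. For these 4 genes both EC-iCOUPOE libraries lay on the same side of control in cluster 4 as in the whole class. Gm10093 and Ccdc85b were also called in cluster 4, whereas Trim12a and Gm10260 were not called there. A gene with too few UMIs for a test in a cluster also counts as not called. Across the 13 clusters with at least 10 cells in each library, Ftl1-ps1 ranged from 0 to 96.0 CPM in control, from 455 to 889 CPM in replicate 1 and from 565 to 1112 CPM in replicate 2, so the control range did not overlap the others. Ftl1-ps1 was called in all 12 clusters where it was tested. Hebp1 was called in 5 of 8 clusters tested, Ccdc85b in 5 of 9, Gm10093 in 4 of 7 and Gm10260 in 3 of 5. Trim12a was called in 3 of 7, Cit in 3 of 6 and Nxpe4 in 2 of 7. A gene may have entered these tests only through a library in which it was high, and shares over all genes are not given by cluster. These cluster counts describe the genes and do not measure them against chance.

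The plot of levels by class and library shows which of the 8 genes kept their shift outside capillaries. In arterial EC 6 of the 7 genes tested were called, 2 higher and 4 lower, against 5.04% of 5632 genes (1.65% higher and 3.39% lower). In postcapillary venules (PCV), identified by Selp and Ackr1 among other markers, all 7 genes tested were called, 4 higher and 3 lower, against 5.93% of 7999 genes (3.65% higher and 2.28% lower). In pericytes/smooth muscle 5 of the 5 genes tested were called, 4 higher and 1 lower, against 5.79% of 6266 genes (2.86% higher and 2.94% lower). A gene that entered a test only through a library in which it was high had to differ, so these counts describe the genes and do not measure them against chance.

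**Figure D2:**
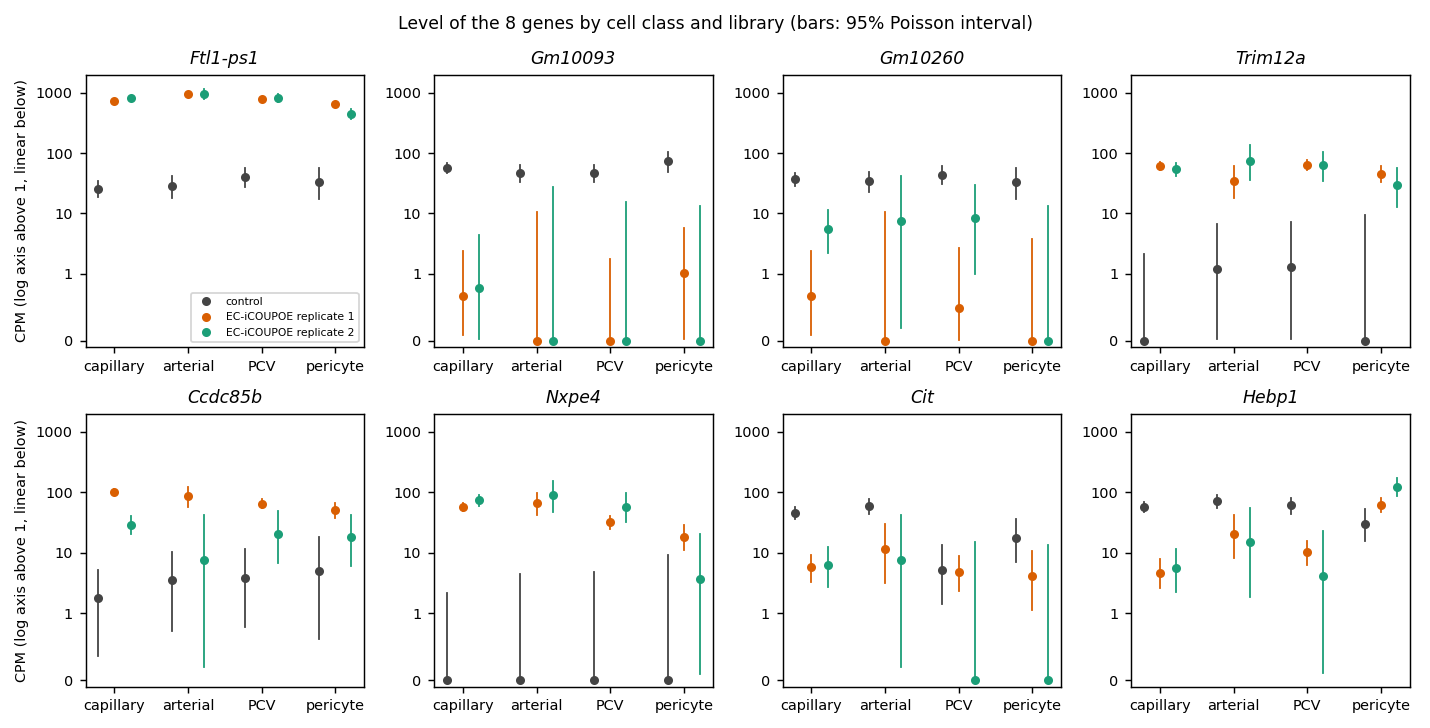
CPM of each gene (vertical, log axis above 1 CPM and linear below) in capillary EC, arterial EC, PCV and pericytes/smooth muscle for the control library and the EC-iCOUPOE libraries, with 95% Poisson intervals. Ftl1-ps1 was at 447 CPM or more in all EC-iCOUPOE points and at 39.99 CPM or less in control, whereas Hebp1 changed order in pericytes/smooth muscle.

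Ftl1-ps1 was the most uniform. It stood at 28.3 CPM in control, 934 CPM in replicate 1 and 957 CPM in replicate 2 in arterial EC. It stood at 39.99, 786 and 825 CPM in PCV, in the same library order. In pericytes/smooth muscle it stood at 32.6, 648 and 447 CPM, and the library groups did not overlap in any of the 4 classes. Its mean log2 ratio over the EC-iCOUPOE libraries was 4.91 ± 0.12 (SD, n = 2) in capillary EC, 5.06 ± 0.03 in arterial EC, 4.33 ± 0.05 in PCV and 4.05 ± 0.38 in pericytes/smooth muscle. Both ratios share 1 control library, so this SD leaves out the error of the control, which held 24 UMIs in arterial EC and 31 in PCV. The counting intervals of replicate 1, 4.44 to 5.71 in arterial EC and 3.79 to 4.86 in PCV, overlapped.

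Trim12a held 1 UMI in control arterial EC against 12 and 10 in the EC-iCOUPOE libraries, which was under the 20 UMIs required for a test. It held 1 UMI in control PCV, 132 in replicate 1 and 15 in replicate 2, with log2 ratios of 5.63 (3.12 to 10.94) and 5.59 (2.89 to 10.99). In pericytes/smooth muscle it held 0, 44 and 8 UMIs, at least 5.99-fold and 3.87-fold higher. Nxpe4 held 0, 23 and 12 UMIs in arterial EC and 0, 66 and 14 in PCV, and was called higher in both. In pericytes/smooth muscle it held 0, 18 and 1 UMIs and was not tested, and no fold was given for replicate 2 because both counts lay at or under the floor. Ccdc85b was called higher in PCV (3.87, 65.2 and 20.7 CPM) and in pericytes/smooth muscle (5.02, 51.2 and 18.2 CPM). The interval of its log2 ratio in pericytes/smooth muscle of replicate 2 ran from -0.75 to 5.25, so that call rests on the size of the ratio alone. In arterial EC it held 3, 30 and 1 UMIs and was not called, and no fold was given for replicate 2.

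Gm10093 held 40, 0 and 0 UMIs in arterial EC, 36, 0 and 0 in PCV and 29, 1 and 0 in pericytes/smooth muscle. Only 1 UMI of it appeared in the EC-iCOUPOE libraries across these 3 classes, and it was called lower in each. Gm10260 held 29, 0 and 1 UMIs in arterial EC and 34, 1 and 2 in PCV and was called lower in both, with an interval from -7.55 to 0.40 around the log2 ratio of replicate 2 in arterial EC. Its 13, 0 and 0 UMIs in pericytes/smooth muscle were too few for a test.

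Cit and Hebp1 did not keep to the pattern. Cit was called lower in arterial EC, at 59.0, 11.5 and 7.48 CPM. In PCV it held 4 UMIs in control, 10 in replicate 1 and 0 in replicate 2, and its log2 ratio in replicate 1 was -0.10 (-1.89 to 2.03), so no shift was detectable at this depth. In pericytes/smooth muscle it held 7, 4 and 0 UMIs, with a log2 ratio of -2.10 (-4.32 to -0.12) in replicate 1. Cit had too few UMIs for a test in either class. In dividing cells, where citron kinase acts at the end of mitosis, Cit stood at 78.9, 55.7 and 61.4 CPM. Its log2 ratios there were -0.50 and -0.36, both short of the 2-fold rule, from 21, 140 and 21 cells, and 11.2% of genes tested in these cells were called. Hebp1 was called lower in arterial EC (70.8, 20.1 and 14.96 CPM) and in PCV (60.6, 10.1 and 4.14 CPM). In pericytes/smooth muscle it was called higher, with 12 UMIs in control (30.1 CPM), 61 in replicate 1 (62.5 CPM) and 34 in replicate 2 (124 CPM). Its log2 ratios there were 1.05 (0.15 to 2.08) and 2.04 (1.05 to 3.12), with a mean of 1.55. The call was lost with doublets kept (1.44), with cells of at least 2000 UMIs (1.53) and at 3-fold, and the direction reversed in male cells alone (-0.13). That last value rests on 9, 50 and 18 male cells, with control under the minimum of 10, so the direction in male cells is uncertain. A description of these genes as shifted alike in every cell class therefore did not hold for Cit in dividing cells, nor for Hebp1 in pericytes/smooth muscle. Among the others, only Ftl1-ps1 and Gm10093 were called in all 4 classes. Ccdc85b was tested and not called in arterial EC. Trim12a could not be tested in arterial EC, nor Nxpe4 and Gm10260 in pericytes/smooth muscle.

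**Figure D3:**
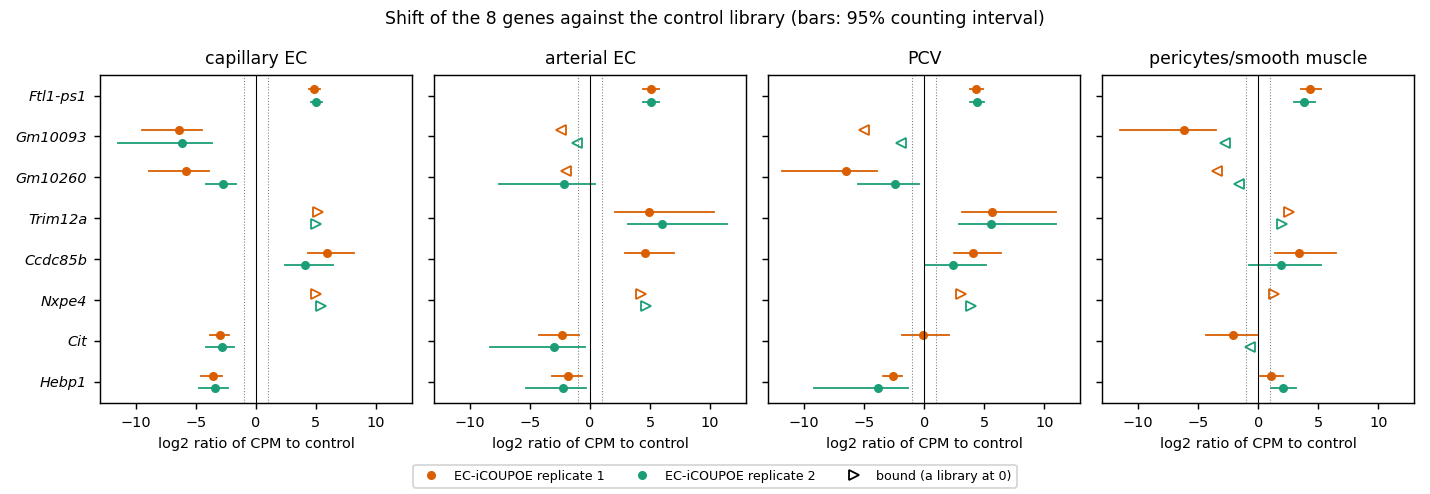
Log2 ratio of CPM to control (horizontal) for each gene in 4 cell classes, with EC-iCOUPOE replicates 1 and 2 as points, 95% counting intervals as bars, bounds from a library at 0 as open triangles and the 2-fold rule as dotted lines. Hebp1 lies left of 0 in the 3 endothelial classes and right of 0 in pericytes/smooth muscle, at 1.05 and 2.04.

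The pericyte class differed in content between libraries. At the finer clustering resolution of 1.6 it held a cluster led by Ndufa4l2 and Notch3, with 84, 166 and 47 cells in control and replicates 1 and 2. Another cluster, led by Actg2 and Acta2, had 42, 50 and 42 cells. Whether all these cells surround vessels, and the part of this split in the values, was not tested. The 10 fibroblast markers summed to 2136 CPM in the control pericytes/smooth muscle, 279 CPM in replicate 1 and 244 CPM in replicate 2, with 1, 3 and 5 of them at 0. The 8 blood endothelial markers summed to 2615, 2897 and 422 CPM, with none at 0. Nr2f2 itself stood at 266, 1234 and 611 CPM in these cells, and Cdh5 at 206, 239 and 14.6 CPM. Hebp1 stood at 99.2 CPM in the 2452 control fibroblasts, above its control pericyte level. The part of other cells' RNA in the pericyte values was not tested. In sums over cells, fewer cells of a type and less RNA per cell cannot be told apart.

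Classes without a full comparison showed the genes too. In high endothelial cells (HEC), the venous cells through which lymphocytes enter the patch, EC-iCOUPOE replicate 2 held 2 cells and was left out. There Gm10260 stood at 71.1 CPM in control (196 UMIs) and 1.36 CPM in EC-iCOUPOE replicate 1 (1 UMI). Hebp1 stood at 66.7 and 2.71 CPM, Ccdc85b at 0.725 and 92.3 CPM and Ftl1-ps1 at 23.2 and 777 CPM in the same pair of libraries. Cit stood at 8.34 and 10.9 CPM, with overlapping intervals. Lymphatic EC came almost only from the EC-iCOUPOE libraries (1, 906 and 127 cells). In them Ftl1-ps1 stood at 1008 and 1055 CPM and Trim12a at 102 and 78.3 CPM, while Nxpe4 stood at 5.64 and 3.40 CPM.

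For the retrocopies, the share of the copy in the UMIs of copy and source was compared by library. In capillary EC, Ftl1-ps1 made up 1.601% (1.17 to 2.14%, Clopper-Pearson) of Ftl1-ps1 and Ftl1 UMIs in control. The share was 69.9% (68.2 to 71.5%) in replicate 1 and 46.4% (44.3 to 48.4%) in replicate 2. The EC-iCOUPOE libraries thus differed from each other as well as from control. Over all classes with at least 10 cells, the share ranged from 1.02% to 5.88% in control, from 67.3% to 87.3% in replicate 1 and from 36.7% to 54.9% in replicate 2. These ranges over classes did not overlap between libraries, but copy and source levels also differed between female and male cells of replicate 1.

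The source gene moved the other way. Ftl1 in capillary EC stood at 1573 CPM in control, 313 CPM in replicate 1 and 942 CPM in replicate 2, or 5.03-fold and 1.67-fold lower, and did not reach the 2-fold rule in replicate 2. It was called lower in pericytes/smooth muscle (1487, 305 and 447 CPM). The sum of Ftl1 and Ftl1-ps1 shifted less than either gene in capillary EC and PCV. In capillary EC its log2 ratio was -0.62 (-0.70 to -0.55) in replicate 1 and 0.14 (0.05 to 0.22) in replicate 2, and in PCV -0.66 (-0.76 to -0.57) and 0.07 (-0.08 to 0.22). In arterial EC the sum gave -0.30 (-0.46 to -0.15) and 0.42 (0.23 to 0.60), the latter beside -0.42 for Ftl1 alone. In pericytes/smooth muscle the sum was lower in both, at -0.67 (-0.82 to -0.52) and -0.76 (-0.98 to -0.55). The ferritin heavy chain gene Fth1 stood at 2163, 2515 and 1634 CPM in capillary EC, with no 2-fold shift.

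Gm10093 made up 57.6% (49.8 to 65.2%) of Gm10093 and Hdac1 UMIs in control capillary EC, 0.897% (0.109 to 3.20%) in replicate 1 and 0.515% (0.0130 to 2.84%) in replicate 2. Hdac1 stood at 41.9, 73.9 and 152 CPM in these cells and was called higher only in arterial EC among the 4 classes (31.9, 101 and 135 CPM). The sum of both gave log2 ratios of -0.41 (-0.70 to -0.11) and 0.62 (0.32 to 0.93) in capillary EC, with opposite signs in the EC-iCOUPOE libraries. Gm10260 made up 2.52% (1.95 to 3.21%) of Gm10260 and Rps18 UMIs in control capillary EC, 0.0326% (0.00395 to 0.118%) in replicate 1 and 0.208% (0.0836 to 0.428%) in replicate 2. Rps18, a subunit of the small ribosome, stood at 1440, 2047 and 2642 CPM, and was called in neither capillary EC, arterial EC nor pericytes/smooth muscle. Over classes the Gm10260 share ranged from 0% to 6.29% in control and up to 0.0613% and 0.769% in replicates 1 and 2, so these ranges overlapped at 0.

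**Figure D4:**
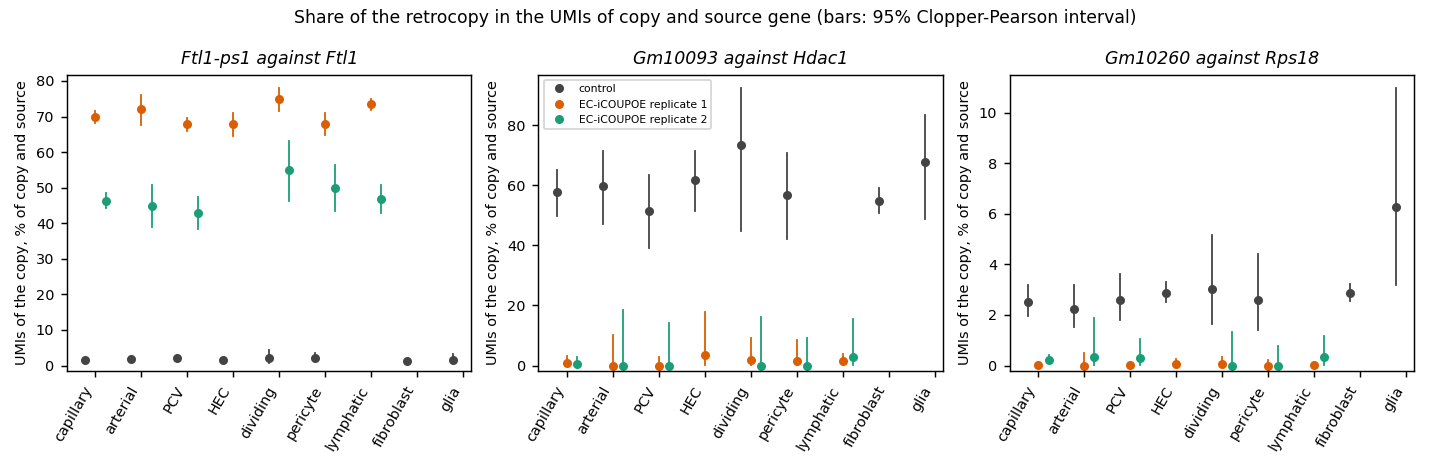
UMIs of each retrocopy as a percentage of copy and source UMIs (vertical) by cell class and library, with 95% Clopper-Pearson intervals, for named classes with at least 10 cells in that library. Over these and the unnamed clusters, the Ftl1-ps1 share in control lies between 1.02% and 5.88% and the EC-iCOUPOE libraries at 36.7% or more, and for Gm10093 the order is reversed.

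The remaining genes were read against their relatives. Trim12c, the closest relative of Trim12a, stood at 43.6, 28.1 and 30.7 CPM in capillary EC and was not called. Trim34a (1.16, 14.7 and 21.2 CPM) and Trim30d (0, 28.1 and 25.9 CPM), which belong to the same TRIM cluster, were called higher in capillary EC and in PCV. They were 2 of the 6 TRIM relatives tested in capillary EC, where Trim30a (155, 334 and 179 UMIs), Trim5 (0, 20 and 4 UMIs), Trim21 (26, 25 and 7 UMIs) and Trim12c were not called. Ccdc85a was called lower in capillary EC (120, 39.4 and 55.8 CPM) and in arterial EC, the direction opposite to Ccdc85b, and Ccdc85c was not called. Nxpe2 stood at 5.24, 26.1 and 10.2 CPM and missed the rule in replicate 2. None of the kinases related to Cit that were tested in capillary EC was called, among them Rock1 (125, 166 and 80.2 CPM) and Cdc42bpb (52.9, 69.2 and 56.6 CPM).

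Genes beside the 8 in the genome were read by the same rule. Of up to 5 measured genes on either side of each, 36 were tested in capillary EC, of which 2 were called higher and 2 lower, beside 7.78% of all genes tested. Trim34a, near Trim12a, and 4930481A15Rik, near Ccdc85b, were higher, while Arhgef28, near Gm10260, and Cadm1, near Nxpe4, were lower. In PCV 1 of 32 was called, again Trim34a, beside 5.93% of all genes, and in arterial EC 0 of 23, beside 5.04%. In pericytes/smooth muscle 6 of 26 were called, a larger share than the 5.79% of all genes tested there, namely Fibp, Gm5617 and Nnmt higher and Rasgrp3, Gcn1l1 and Apold1 lower. Their distances ran from 2721 bases for Fibp to 2962528 bases for Rasgrp3. The pericyte class also differed in content between libraries, and the part of this in the share was not tested.

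Promoters of 5 of the 8 genes were matched in RefSeq on GRCm38.p6, from 250 bases before to 50 after the start, and none was matched for the retrocopies. Trim12a was the only one of the 5 with the interferon-response pattern of 2 GAAA words 2 bases apart, read on both strands like the others, which occurred in 3.44% of 32851 promoters. Nxpe4 held 2 copies of GGTCA, the half-site of nuclear receptors such as COUP-TFII, which occurred in 40.5% of promoters, and Ccdc85b held 1. AAGTG, the core of NKX2 sites, occurred once each in Ccdc85b, Cit and Hebp1 and in 46.4% of promoters. A match describes the letters only. The Trim12a and Nxpe4 windows are printed because both genes had no UMI in control capillary EC, with the matches in capitals.
Trim12a, chr7:104315446-104315745, minus strand: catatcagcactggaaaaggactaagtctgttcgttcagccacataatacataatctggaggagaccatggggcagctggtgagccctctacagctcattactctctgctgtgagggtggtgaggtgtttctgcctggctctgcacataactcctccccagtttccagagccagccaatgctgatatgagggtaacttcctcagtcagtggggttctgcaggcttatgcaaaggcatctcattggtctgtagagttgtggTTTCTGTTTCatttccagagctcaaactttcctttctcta
Nxpe4, chr9:48361791-48362090, plus strand: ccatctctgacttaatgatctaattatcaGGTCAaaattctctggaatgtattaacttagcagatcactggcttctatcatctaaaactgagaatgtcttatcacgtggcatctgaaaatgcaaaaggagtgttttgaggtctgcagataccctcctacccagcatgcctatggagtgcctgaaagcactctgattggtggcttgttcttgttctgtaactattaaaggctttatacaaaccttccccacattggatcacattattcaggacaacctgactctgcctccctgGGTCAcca

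Lists of genes related to the 8 were compared by the same rule. Of 26 interferon-response genes, all tested in capillary EC, 7 were called higher and 1 lower, beside 4.84% and 2.94% of all genes. Their median log2 ratios were 0.65 and 0.63 in EC-iCOUPOE replicates 1 and 2, beside 0.02 and -0.12 over all genes tested. Ifit3, an antiviral effector, stood at 25.6, 235 and 131 CPM, Bst2, which tethers virions, at 195, 717 and 492 CPM, and Trim25, an activator of RIG-I signalling, at 143, 54.1 and 44.0 CPM. In arterial EC 1 of 19 was called higher and 2 lower, beside 1.65% and 3.39% of all genes, with medians of 0.09 and -0.39 beside -0.12 and -0.19 over all genes. In PCV 5 of 24 were called higher and 1 lower, beside 3.65% and 2.28%, with medians of 0.47 and 0.50 beside 0.06 and -0.14. Among pericytes/smooth muscle 1 of 17 was called higher and 1 lower, beside 2.86% and 2.94%, with medians of 0.26 and -1.05 beside 0.02 and -0.20, so the medians of replicate 2 were below 0 in both arterial EC and pericytes/smooth muscle. Of the iron and haem genes other than Hebp1, 1 of 15 tested was called in capillary EC, Slc11a2, an iron transporter, beside 7.78% of all genes. In pericytes/smooth muscle 1 of 11 was called, Ftl1, beside 5.79%, and in arterial EC 0 of 11 and in PCV 0 of 14. Of the cytokinesis genes only 1 of 17 had enough UMIs in capillary EC, and it was not called. Of the histone deacetylase complex genes 1 of 17 was called in capillary EC, Sap18 (55.8, 143 and 132 CPM), a subunit of the SIN3 complex, beside 7.78%. In arterial EC 2 of 16 were called higher, Hdac1 and Sap18, and 1 lower, Sin3a, beside 1.65% and 3.39%. In PCV 0 of 16 were called, and in pericytes/smooth muscle 1 of 15, Sap18, beside 5.79%.

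Genes outside the 8 showed the same kind of pattern. Over the 4 classes, 4924 genes were tested in each class and 0.548% (27 genes) were called in one direction in all of them, 14 higher (0.284%) and 13 lower (0.264%). The count became 68 without EC-iCOUPOE replicate 1 and 143 without replicate 2. Of the 8 genes, Ftl1-ps1 and Gm10093 were among the 27. Among genes with one sign in all 8 values, 10 had the largest smallest absolute log2 ratio, and Ftl1-ps1 (3.78) ranked 2 in that order, with Trim12a (at least 1.95) also among the 10. Serpina1b, a serpin made mainly in liver, ranked 1 with 4.54 and was lower, at 311, 11 and 1 UMIs in capillary EC. Glycam1, a mucin-like ligand of HEC, was also lower, at 294, 7 and 0 UMIs. Both were among the 10 leading genes of the HEC cluster, and HEC numbered 373, 95 and 2 cells in the 3 libraries. The part of HEC RNA in these values was not tested. The others were higher, with the smallest ratio at 3.52 for Pttg1, 3.14 for Rpl29, 2.45 for AY036118, 2.35 for Erh, 2.25 for Wdr83os and 2.03 for Eno1. The smallest ratios of Trim12a and Glycam1 are bounds from a library at 0 UMIs, which depend on the depth of the class, so their places are not measured ranks. For the same reason no rank is given for Gm10260 and Gm10093, and Ccdc85b, Nxpe4, Cit and Hebp1 had no such rank because a value was missing or of the other sign.

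Comparisons within a library share its pool of mice, sequencing and reference. The cells on either side of such a comparison need not come from the same mice or sexes, and that mix was not compared. In capillary EC of EC-iCOUPOE replicate 1, 1010 cells with an Nr2f2 UMI were set against 119 without, and in replicate 2, 439 against 129. Cells with a UMI were deeper, with medians of 2349 and 2243 UMIs against 1860 and 1729, and a cell without one may still express the gene. Ftl1-ps1 stood at 720 CPM with and 789 CPM without Nr2f2 UMIs in replicate 1, and at 809 and 834 CPM in replicate 2. Its log2 ratios were -0.13 (-0.35 to 0.09) and -0.04 (-0.27 to 0.19). These intervals cover counting error only and the split goes by detected UMIs, so they cannot bound a rise with Nr2f2. The source gene Ftl1 stood at 296 CPM with and 503 CPM without Nr2f2 UMIs in replicate 1, and at 933 and 978 CPM in replicate 2. Its log2 ratios were -0.76 (-1.04 to -0.48) and -0.07 (-0.27 to 0.14), so in replicate 1 the source differed where the copy did not. Ftl1 also differed between female and male capillary EC of replicate 1, at 412 CPM (376 to 450) and 182 CPM (151 to 216). Trim12a gave -0.51 (-1.19 to 0.24) and 0.31 (-0.63 to 1.39), and Ccdc85b 0.10 (-0.52 to 0.78) and 0.28 (-1.001 to 1.83). Nxpe4 was lower in cells with Nr2f2 UMIs, at 50.5 against 130 CPM in replicate 1 and 64.1 against 116 CPM in replicate 2, with log2 ratios of -1.37 (-1.94 to -0.75) and -0.85 (-1.51 to -0.16). Pooled over only the clusters that held at least 20 cells of each kind, the ratios were -1.18 (-1.88 to -0.41) and -0.49 (-1.54 to 0.52). They rest on 735 cells with and 82 without Nr2f2 UMIs in replicate 1, and on 58 and 67 in replicate 2. The mix of the pooled clusters can still differ between the sides. In replicate 2 the Nxpe4 difference was not detectable there. Madcam1, the mucosal addressin, gave 1.93 (1.69 to 2.19) and 1.57 (1.39 to 1.76) in the same split. Pooled over those clusters it gave 1.58 (1.32 to 1.86) and 0.99 (-0.12 to 2.19). Its difference was not detectable there in replicate 2 either, where it held 21 and 11 UMIs. The lower genes held 3 UMIs or fewer on the Nr2f2-zero side, and no difference was detectable for them at this depth.

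**Figure D5:**
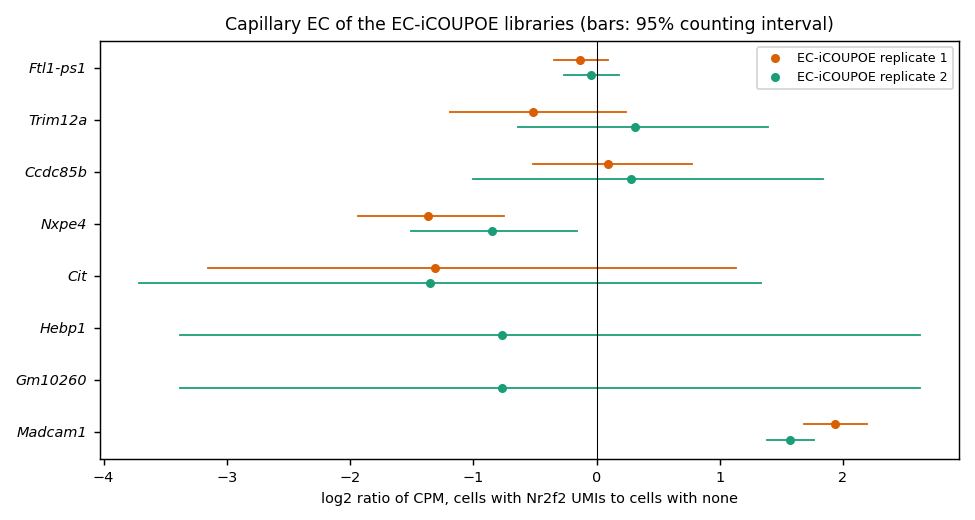
Log2 ratio of CPM between capillary EC with and without Nr2f2 UMIs (horizontal) within each EC-iCOUPOE library, with 95% counting intervals, for the genes with UMIs on both sides and for Madcam1. Ftl1-ps1 lies at -0.13 and -0.04, Nxpe4 left of 0 in both libraries and Madcam1 right of 0 in both.

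Female and male cells, told apart by X-inactivation and Y-linked transcripts, come from different mice pooled in the same library. In the 4 classes pooled, the control gave 1151 female and 76 male cells. Ftl1-ps1 stood at 31.9 CPM in control female cells and 33.6 CPM in control male cells. It ranged from 660 to 831 CPM over the female and male cells of the EC-iCOUPOE libraries. In replicate 1 it was lower in female than in male cells, at 660 CPM (629 to 692) and 831 CPM (788 to 876). Its source Ftl1 went the other way there, at 415 CPM (390 to 440) and 259 CPM (236 to 285). In replicate 2 the intervals of the sexes overlapped, with Ftl1-ps1 at 826 and 722 CPM and Ftl1 at 880 and 902 CPM. Cit stood at 36.0 and 33.6 CPM in control female and male cells and between 2.77 and 7.21 CPM in the EC-iCOUPOE sets. Hebp1 stood at 56.9 and 50.3 CPM and between 13.8 and 27.5 CPM. For all 8 genes the values of the control pair and the 4 EC-iCOUPOE sets did not overlap, in capillary EC as in the 4 classes pooled. This does not hold for all of their intervals. Ccdc85b held 0 UMIs in 36 male control capillary EC. Their floor of 43.0 CPM lay above the 34.5 and 18.9 CPM of female and male cells of replicate 2. In the 4 classes pooled, male Ccdc85b intervals overlapped between control (0.142 to 31.2 CPM) and replicate 2 (4.49 to 32.3 CPM). The genes were picked on this contrast, and the share of all genes separating in this way was not computed. The male control values rest on 11 UMIs or fewer per gene.

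The shifts were also seen as shares of cells. After every capillary EC was thinned to 1000 UMIs, Ftl1-ps1 was found in 2.98% of control cells (2.00 to 4.25%), 48.7% in replicate 1 and 49.8% in replicate 2. Without thinning, the shares were 4.41%, 74.8% and 73.1%. Trim12a was found in 0% of thinned control cells, 6.91% in replicate 1 and 4.75% in replicate 2, and Hebp1 in 5.24%, 0.620% and 0.528%. No class was known to lack these genes, so the share that free RNA gives was not measured.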

How the data were processed

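Cells sorted as blood endothelium from Peyer's patches were profiled in 3 libraries, which also held other cells: 2452, 8 and 4 fibroblasts, 199, 2 and 5 glia and 1, 906 and 127 lymphatic EC in control and replicates 1 and 2. The authors aligned reads to mm10 with Cell Ranger 3.0.2 per the labels and deposited raw UMI counts per gene and cell. The file header of EC-iCOUPOE replicate 1 names version 3.1.0, and its 31053 features lack CreERT2 and TdTomato, which held 0 UMIs in the cells used from the other libraries, all others being the same 31053 features. Barcodes with fewer than 500 genes, fewer than 1000 UMIs or over 10% mitochondrial UMIs were dropped, and doublets (Scrublet in Scanpy 1.11.5) were removed, 4.02%, 1.71% and 0.644% of kept cells in control and replicates 1 and 2. Cells were integrated and clustered in Seurat 5.3.0 (R 4.3.3, 2000 variable genes, resolution 1), leaving the 8 genes, their relatives, neighbours and gene lists, and Nr2f2 out of the variable genes. Clusters were named from fixed markers. A minimum marker score of 0.3 was set after seeing the data, and by itself kept 6.25%, 27.3% and 17.0% of blood EC in the 3 libraries out of a named class. In all, 17.6%, 43.5% and 26.1% had no name. The capillary class includes capillary-resident progenitors.

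UMIs were summed per class and library. No model was fitted, since there was 1 control library. Log2 ratios of CPM carry exact conditional intervals, levels Poisson intervals and shares Clopper-Pearson intervals, all at 95%. The code was tested on simulated data. Sequences came from GENCODE M21 transcripts and RefSeq, with blastn 2.17.0 in place of the planned protein search, because no protein table was used here. Named genes were the 8, their source genes, relatives with at least 20 UMIs in capillary EC, called neighbours, Nr2f2, Cdh5 and the 10 genes most alike in shift. Madcam1, the interferon genes named, Fth1, Slc11a2 and Sap18 were chosen after their values were seen. The members and lists were chosen with earlier results of these data known. Of 31055 features, 30934 were matched to GENCODE M21 by identifier.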

Additional observations from a re-analysis of the deposited data

Results flagged for a closer look

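Hebp1 moved in opposite directions in endothelium and in pericytes/smooth muscle, and the difference itself was not tested. Its mean log2 ratio over the EC-iCOUPOE libraries was -3.50 in capillary EC, -2.03 in arterial EC and -3.23 in PCV, and 1.55 in pericytes/smooth muscle, with both EC-iCOUPOE libraries on one side of control in each class. The call in pericytes/smooth muscle was lost with doublets kept (1.44), with cells of at least 2000 UMIs (1.53) and at 3-fold, and the direction there reversed in male cells alone (-0.13). Only 9 control cells were male in that class, so the direction in male cells is uncertain.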

How the results depend on the processing

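No paired analysis was possible because 1 control library stood against 2 EC-iCOUPOE libraries. The 8 capillary calls held under 13 of the 14 alternatives and fell to 1 in male cells. Some alternatives only loosen the rule (1.5-fold, no UMI minimum, either EC-iCOUPOE library left out), so no call could be lost under them. The calls in arterial EC, 6 of 8 genes, fell to 3 with cells of at least 2000 UMIs and with a minimum of 50 UMIs, and to 1 in female cells and in male cells. Those in PCV, 7 of 8, fell to 4 with 50 UMIs, 2 in female cells and 1 in male cells. Those in pericytes/smooth muscle, 5 of 8, fell to 3 with 50 UMIs and to 1 in male cells. Male and female subsets hold fewer cells, so fewer genes could be tested. Hebp1 in pericytes/smooth muscle reversed in male cells, to a mean log2 ratio of -0.13, which rests on 9 male control cells. It was no longer called with doublets kept (1.44), with cells of at least 2000 UMIs (1.53) or at 3-fold. The cause was not tested. The 27 genes called in all 4 classes became 5 in male cells, 12 with 50 UMIs, 69 at 1.5-fold and 10 at 3-fold, and 68 to 143 without one of the EC-iCOUPOE libraries. The 2 of the 8 genes among them became 1 in cells of at least 2000 UMIs, in female cells, in male cells, with 50 UMIs and at 3-fold, and 4 with no minimum. The 1 gene past 2-fold between capillary cells with and without Nr2f2 UMIs in both libraries was Cit. That count became 0 with 2 or more UMIs, and with only the clusters of at least 20 cells of each kind pooled. With and without any Nr2f2 UMI, Cit held 14 and 3 UMIs in replicate 1 and 5 and 3 in replicate 2. The intervals of its log2 ratios, -3.15 to 1.13 and -3.71 to 1.34, included 0, so no difference was detectable. Depth limits the values of EC-iCOUPOE replicate 2 outside capillary EC, which rest on 59 arterial EC, 85 PCV and 89 pericytes/smooth muscle cells.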
